A study of Mus musculus with 10 samples.

Results

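The 31 genes described here encode the enzymes that make cholesterol, the proteins that sense it and switch those enzymes on, and the proteins that move, store and export it. They were taken by symbol from a list of genes of the pathway of sterol regulatory element binding protein 2 (SREBP2). The rule uses no measured value, but the members were chosen with earlier results of these data known. All 31 were found among the 22380 genes quantified. The list holds 8 enzymes of the mevalonate arm, which leads from acetyl-CoA to farnesyl and geranylgeranyl diphosphate, and 11 enzymes of the sterol arm, which leads from farnesyl diphosphate to cholesterol. It also holds 5 genes of the SREBP system, 3 genes of sterol transport, storage and receptor turnover, and 4 genes of the liver X receptors and sterol export.

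RNA was sequenced from sorted germinal center B cells that bound the hapten NP, taken 2 weeks after immunization with NP-OVA in alhydrogel. ZBTB38 WT mice (genotype Zbtb38fl/fl, no Cre) gave 2 libraries, ZBTB38 HET mice (Zbtb38fl/+ x Vav-Cre) gave 2 and ZBTB38 KO mice (Zbtb38fl/fl x Vav-Cre) gave 6. The labels give the strain of every mouse as C57Bl6/N and give no age. All mice carried at least 1 floxed allele, in which exon 3 of Zbtb38, the exon with the whole protein-coding sequence, lies between loxP sites, and the allele descends from a single founder. Vav-Cre acts across hematopoietic cells, so the T cells and myeloid cells around the B cells carried the deletion too. ZBTB38 WT mice lacked Cre, so in WT against KO the deletion and the presence of Cre cannot be told apart, whereas HET and KO mice both carried Cre. Each library came from a different mouse. Libraries are named by genotype and replicate number (WT1, KO6).

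Cells build cholesterol from acetyl-CoA by way of mevalonate, and the isoprenoids made on the way also anchor small GTPases to membranes. SREBP2 is held in the endoplasmic reticulum by SCAP and the INSIG proteins while sterol is plentiful. When sterol falls, SCAP carries it to the Golgi, where proteases release the part that enters the nucleus and turns on the synthesis genes. Liver X receptors bind oxysterols and turn on export pumps of the ABC transporter family as well as MYLIP, a ubiquitin ligase that marks lipoprotein receptors for degradation. ZBTB38 is a zinc finger protein that binds methylated CpG sites. Germinal center B cells divide fast and need new membrane.

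The estimated counts summed to between 26612431 and 41059082 per library. Zbtb38 was at 164 and 152 CPM (read counts scaled to a common library total) in WT, at 117 and 106 CPM in HET and at 18.5 to 50.1 CPM in KO, with no overlap between the genotypes. All 11 germinal center B cell markers were above 1 CPM in every library, and their sum lay between 8143 and 11648 CPM. Markers of other cells were present as well: the sum of 10 myeloid markers was 495 to 631 CPM in WT, 94.6 to 101 CPM in HET and 84.7 to 815 CPM in KO, and none of the 10 was at 0 in any library. The sum of 9 T cell markers was 245 to 249.1 CPM in WT, 188 to 190.4 CPM in HET and 178 to 253 CPM in KO, and none was at 0. In bulk libraries such as these, fewer cells of a type and less RNA per cell cannot be told apart. KO6 stood apart, with a median correlation with the other libraries of 0.948 against 0.967 to 0.981 for the rest. Libraries also differed by transcript length: genes with transcripts over 5000 bases deviated by a median of -0.30 log2 units in KO1, -0.16 in KO6 and -0.12 in KO3, and by 0.05 to 0.17 in the 4 control libraries, KO2 and KO4.

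Levels are compared between genes as TPM, a unit that scales counts by transcript length and by library total. The means over the 10 libraries ran from 1.92 TPM for Abca1 to 187 TPM for Fdps, a 97.7-fold range, with a median of 32.4 TPM over the 31 genes. In the mevalonate arm the order was Fdps, farnesyl diphosphate synthase, at 187 TPM, Idi1, isopentenyl diphosphate isomerase, at 87.1, Hmgcs1, which makes HMG-CoA, at 72.5, and Acat2, which joins acetyl-CoA units, at 69.3. The kinase Pmvk followed at 51.1 TPM, then Ggps1, which makes geranylgeranyl diphosphate, at 34.2, the decarboxylase Mvd at 19.2 and mevalonate kinase, Mvk, at 14.3. The ranges of Hmgcs1 and Acat2 overlapped almost wholly, and their order changed between libraries. Hmgcs1 was at 92.6 TPM and Acat2 at 72.2 in WT1, and at 34.3 and 54.3 in KO1. The ranges of Mvd and Mvk overlapped too, but within each library Mvd was the higher, except in HET1 (14.4 against 16.8 TPM). Fdps was above every other gene of the 31 in every library, at 157 to 219 TPM.

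Sterol arm enzymes ran from 95.03 TPM for Msmo1, a C4-methylsterol oxidase, down to 6.66 TPM for Hsd17b7, a ketosteroid reductase. Sc5d (73.3 TPM), Sqle (71.5 TPM) and Cyp51 (71.3 TPM) were level with each other; SC5D is a sterol desaturase, squalene epoxidase takes the first oxygen step and CYP51 removes the C14 methyl group of lanosterol. Between them and Hsd17b7 lay the sterol reductase Tm7sf2 at 44.6, the isomerase Ebp at 33.6, squalene synthase, Fdft1, at 32.7, the dehydrogenase Nsdhl at 23.2, the reductase Dhcr7 at 18.3 and lanosterol synthase, Lss, at 13.1 TPM. Of the SREBP system, Srebf2, which encodes SREBP2, was at 105 TPM and the other 4 genes lay between 23.9 and 32.4 TPM, in the order Srebf1, Insig2, Insig1, Scap. Soat1, which esterifies cholesterol for storage, Stard4, which carries it between membranes, and Mylip were at 17.3, 16.99 and 16.7 TPM, within each other's spread. Of the liver X receptors, the broadly expressed Nr1h2 was at 65.0 TPM and Nr1h3 at 2.29 TPM, and the export pumps Abcg1 and Abca1 were at 1.97 and 1.92 TPM.

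**Figure D1:**
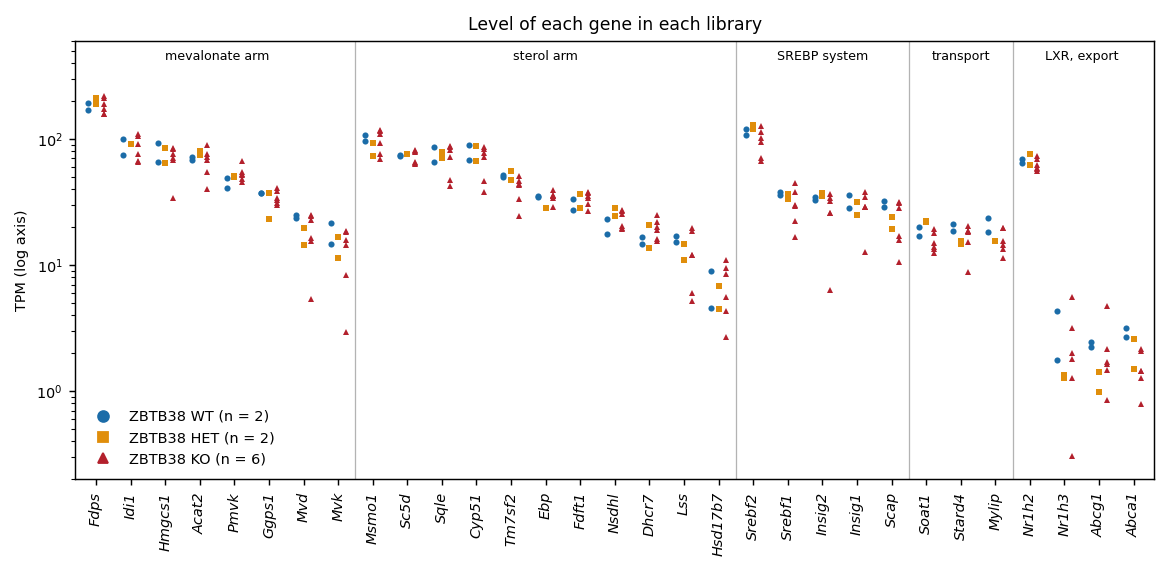
Level of each of the 31 genes in each library, in TPM on a log axis, by role and in order of the mean within a role (circles, ZBTB38 WT, squares, ZBTB38 HET, triangles, ZBTB38 KO). The 3 genotypes overlap for most genes, and Nr1h3, Abcg1 and Abca1 lie below all the others, at means of 1.92 to 2.29 TPM.

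All 31 genes were above a floor of 3 counts in every library, and the lowest value was that of Nr1h3 in KO2, 0.323 CPM, where 3 counts are 0.113 CPM. In the Gencode vM21 annotation of GRCm38, Ebp lies on chromosome X from 8185329 to 8193512, Nsdhl is also X-linked, and Sc5d and Scap share chromosome 9 with Zbtb38. Exons of 6 of the 31 genes overlap exons of another coding gene: Ggps1, Fdft1, Cyp51 and Srebf1 overlap a gene on the opposite strand, and Fdps and Tm7sf2 a gene on the same strand, so part of their reads could be shared.

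Upstream sequence was read for 5 genes: 3 SREBP targets that were lowest in the same KO library (Hmgcs1, Cyp51 and Insig1), and the 2 with the smallest p-values between genotypes (Ebp and Abca1). That library, KO1, was also low for genes with long transcripts as a class. The sequences are RefSeq's for GRCm38.p6 and run 5′ to 3′ up to the annotated start. Those of Cyp51 and Insig1 stop after 201 bases, because the bases after them lie inside the Gencode gene, and the other 3 have 250 bases. Capitals mark the motifs that were searched on both strands: TCACNCCAC (a form of the sterol regulatory element, the site that SREBPs bind), CACGTG (E-box) and CCAAT (the site of NF-Y, a factor known to act with SREBPs), which reads ATTGG on the other strand and lies in the bases left out for Cyp51.
Hmgcs1, chr13:119690101-119690350, plus strand: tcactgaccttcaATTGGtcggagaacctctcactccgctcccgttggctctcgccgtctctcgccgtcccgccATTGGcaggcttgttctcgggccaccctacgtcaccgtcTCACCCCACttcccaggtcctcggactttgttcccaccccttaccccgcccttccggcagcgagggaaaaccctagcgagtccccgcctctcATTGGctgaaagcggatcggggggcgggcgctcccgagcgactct
Cyp51, chr5:4104747-4104947, minus strand: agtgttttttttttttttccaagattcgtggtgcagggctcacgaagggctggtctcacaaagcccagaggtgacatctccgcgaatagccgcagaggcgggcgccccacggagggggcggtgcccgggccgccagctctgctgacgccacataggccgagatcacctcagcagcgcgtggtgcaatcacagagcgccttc
Insig1, chr5:28071162-28071362, plus strand: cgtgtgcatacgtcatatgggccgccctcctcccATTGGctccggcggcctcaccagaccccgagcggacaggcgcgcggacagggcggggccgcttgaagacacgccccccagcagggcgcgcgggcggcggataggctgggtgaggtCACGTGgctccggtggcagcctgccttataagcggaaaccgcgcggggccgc
Ebp, chrX:8193513-8193762, minus strand: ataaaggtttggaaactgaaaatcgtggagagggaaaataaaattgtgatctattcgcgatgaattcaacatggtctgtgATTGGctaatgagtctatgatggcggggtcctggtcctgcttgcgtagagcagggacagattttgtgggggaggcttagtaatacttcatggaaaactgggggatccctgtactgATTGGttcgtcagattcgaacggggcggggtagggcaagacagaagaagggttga
Abca1, chr4:53159896-53160145, minus strand: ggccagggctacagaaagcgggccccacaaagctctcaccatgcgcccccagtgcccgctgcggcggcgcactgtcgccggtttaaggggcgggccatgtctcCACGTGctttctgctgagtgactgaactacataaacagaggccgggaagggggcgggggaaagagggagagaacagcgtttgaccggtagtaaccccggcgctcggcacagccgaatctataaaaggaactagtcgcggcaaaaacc
Counted over the 250 bases, 26 of the 31 genes had an entry, and Abcg1, Fdft1, Fdps, Sqle and Stard4 had none. CCAAT was present upstream of 21 of these 26 genes (80.8%), against 37.5% of the 27025 genes with an entry. CACGTG was present for 6 (23.1%, against 6.86% of all genes), namely Hsd17b7, Sc5d, Dhcr7, Scap, Insig1 and Abca1. TCACNCCAC was present for Hmgcs1 alone, 3.85% of the 26 against 1.22% of all genes. The 35 upstream windows of the 26 genes held a median of 16 CpG sites, from 0 to 34, against a median of 6 over all 32851 windows. These letters describe the windows only and say nothing of binding.

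Whether loss of ZBTB38 changed these genes was asked first in WT against KO. None of the 31 passed an adjusted p of 0.1 in edgeR's quasi-likelihood test, and Zbtb38 itself was the 1 gene of 14203 that did (0.00704%). At an unadjusted p under 0.05, 1 of the 31, Abca1, was higher in WT and none was lower, beside 1.19% of all genes tested higher and 1.0% lower. Abca1 was also the 1 member whose WT libraries both lay above every KO library, beside 4.17% of all genes, and no member had both WT libraries below every KO library, beside 2.45%. The median log2 fold change, WT over KO, was 0.07 for the 31 genes and -0.01 for all genes. It was -0.06 for the 19 synthesis enzymes. Of these, 7 (36.8%) had a positive value, beside 48.2% of all genes, and none was at an unadjusted p under 0.05.

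The second comparison set the 4 control libraries against KO. Again no member passed the adjusted threshold, beside 0.00749% of 13347 genes, and Abca1 was the 1 member at an unadjusted p under 0.05, higher in controls, beside 4.05% of genes higher and 2.26% lower. No member had its control libraries all above the KO libraries or all below them, beside 1.06% and 0.502% of all genes. The median log2 fold change was 0.01 for the 31 genes, -0.06 for the 19 enzymes and -0.02 for all genes. For 27 of the 31 genes the 95% interval of the difference lay inside 2-fold in either direction, and for 18 inside 1.5-fold. The 4 with a wider interval were Mvk, Nr1h3, Abca1 and Abcg1. In WT against KO, with 2 control libraries, 21 intervals lay inside 2-fold and 10 inside 1.5-fold. The intervals of Mvk, Mvd, Lss, Hsd17b7, Dhcr7, Insig2, Stard4 and 3 of the 4 liver X receptor and export genes reached past 2-fold there.

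**Figure D2:**
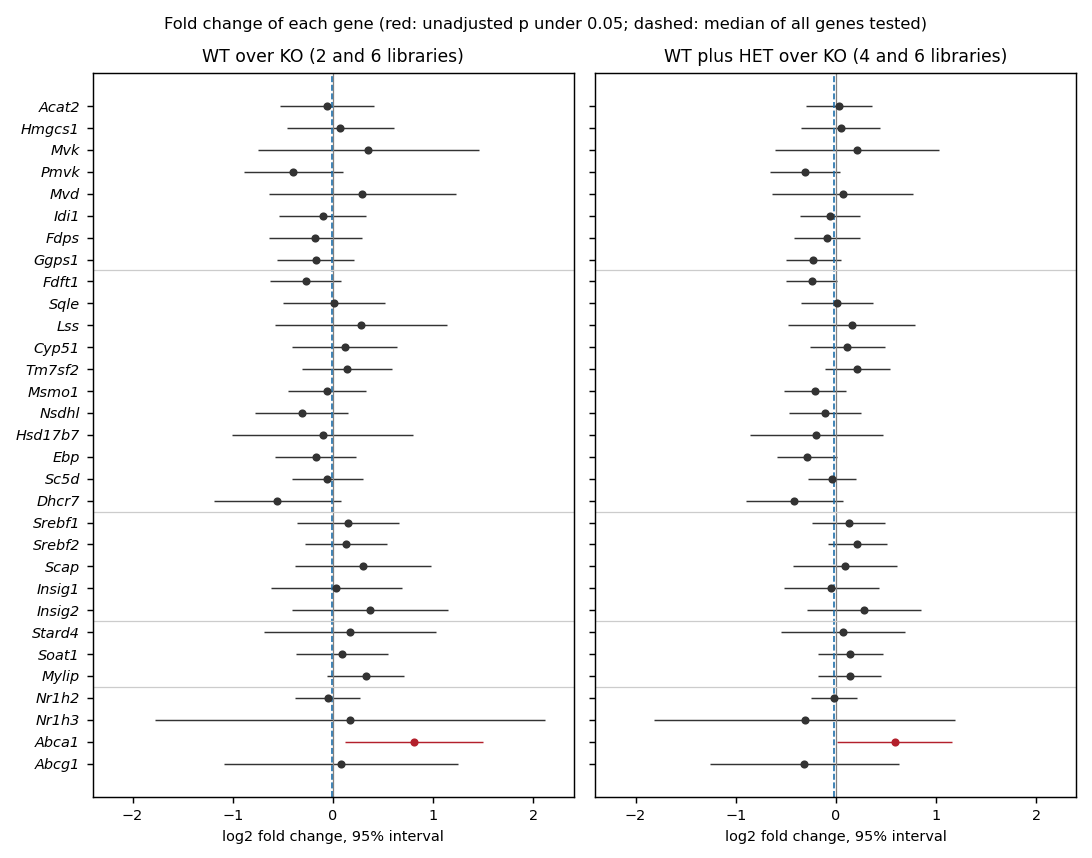
Log2 fold change of the 31 genes in WT over KO (left) and WT plus HET over KO (right), with 95% intervals from edgeR, where red marks an unadjusted p under 0.05, the dashed line is the median of all genes tested, and grey lines part the roles. Abca1 is the 1 gene in red in both panels, at 0.81 and 0.59, and the other points lie between -0.56 and 0.37.

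Genotypes that both carried Cre were compared in HET against KO, and the 2 control genotypes with each other. In HET against KO no member passed the adjusted threshold, beside 0.00697% of 14354 genes, and Ebp was the 1 member at an unadjusted p under 0.05, lower in HET, beside 4.76% of genes lower and 5.46% higher. In WT against HET no member passed either threshold, beside 0.00697% of genes at the adjusted one and 3.98% higher and 2.44% lower at the unadjusted one. The median log2 fold change of the members was -0.01 in HET against KO and 0.05 in WT against HET, beside -0.07 and 0.01 for all genes. These comparisons share libraries with the others and are no separate evidence. DESeq2, the other count model, also put none of the 31 below an adjusted p of 0.1, beside 0.0425% of all genes with an adjusted p in WT against KO, 0.143% in controls against KO, 3.54% in HET against KO and 0.928% in WT against HET. At an unadjusted p under 0.05, DESeq2 gave Abca1 in WT against KO, beside 3.01% of all genes in either direction, and Abca1 and Ebp in controls against KO, beside 7.94%. It gave Ebp in HET against KO, beside 13.1%, and Mylip in WT against HET, beside 8.22%.

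Srebf2, the gene of the pathway's main activator, was at 386 and 328 CPM in WT and at 392 and 403 CPM in HET. In KO it ran from 265 to 434 CPM with a median of 317 CPM. KO5 was above every control library, and KO1, KO4 and KO6 were below every one, so the groups overlapped. The mean was 357 ± 41.2 CPM (SD, n = 2) in WT, 398 ± 7.94 CPM (SD, n = 2) in HET and 324 ± 62.3 CPM (SD, n = 6) in KO. The log2 fold change was 0.13 (SE 0.187, edgeR adjusted p = 0.999) in WT over KO and 0.21 (SE 0.137, adjusted p = 0.749) in controls over KO.

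Insig1, itself a target of SREBPs whose product holds SCAP back, was at 65.1 and 49.9 CPM in WT, at 45.6 and 56.6 CPM in HET and at 29.9 to 76.0 CPM in KO, with a KO median of 55.7 CPM. The highest and the lowest library were both KO (KO3 and KO1), and the control values lay between them. The log2 fold change was 0.03 (SE 0.295, edgeR adjusted p = 0.999) in WT over KO. In controls over KO it was -0.05 (SE 0.218, adjusted p = 0.977).

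Hmgcs1 stands for the early steps, and was at 200.4 and 144 CPM in WT, at 145 and 186 CPM in HET and at 96.7 to 202 CPM in KO, with a KO median of 173 CPM. KO1 alone lay below the controls. WT exceeded KO by a log2 fold change of 0.07 (SE 0.242, 95% interval -0.46 to 0.61, edgeR adjusted p = 0.999), and controls exceeded KO by 0.05 (SE 0.180, 95% interval -0.34 to 0.44, adjusted p = 0.970).

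Sqle, a rate-limiting enzyme of the later steps, was at 161 and 118 CPM in WT, at 132 and 144 CPM in HET and at 102 to 172 CPM in KO, with a KO median of 139.9 CPM. KO1 and KO6, at 101.7 and 102 CPM, were below the controls, and KO3 and KO5 were above them. The log2 fold change of 0.01 in WT over KO (SE 0.231, edgeR adjusted p = 0.999) was far inside the spread between KO libraries, and so was that of 0.01 in controls over KO (SE 0.167, adjusted p = 0.994).

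Ebp, which shifts a double bond of the sterol ring, was at 37.0 and 38.2 CPM in WT and at 31.7 and 31.4 CPM in HET. In KO it ran from 36.2 to 52.0 CPM with a median of 42.1 CPM. Both HET libraries lay below all KO and WT libraries, and the WT libraries lay within the KO range. This was not particular to Ebp. For Msmo1 too, both HET libraries lay below all KO and WT libraries, and for Tm7sf2 both lay above all KO libraries. The other 28 members overlapped between HET and KO, and the share of all genes so separated is not given here. For Ebp, HET was lower than KO by a log2 fold change of -0.41 (SE 0.176, unadjusted p = 0.0372, edgeR adjusted p = 0.463). This difference did not pass the threshold. In WT over KO it was -0.17 (SE 0.183, adjusted p = 0.999) and in controls over KO -0.29 (SE 0.138, adjusted p = 0.744). With limma on log2(TPM + 1) in place of edgeR on counts, the WT over KO value was 0.0069. KO6, the library that stood apart, had the highest Ebp, and without it the HET over KO value was -0.35 (unadjusted p = 0.0379, adjusted p = 0.413). The unadjusted p was 0.127 and 0.137 without either HET library, 0.0512 to 0.0539 without either WT library, KO3 or KO5, and 0.0771 with the length trend of each library taken out.

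**Figure D3:**
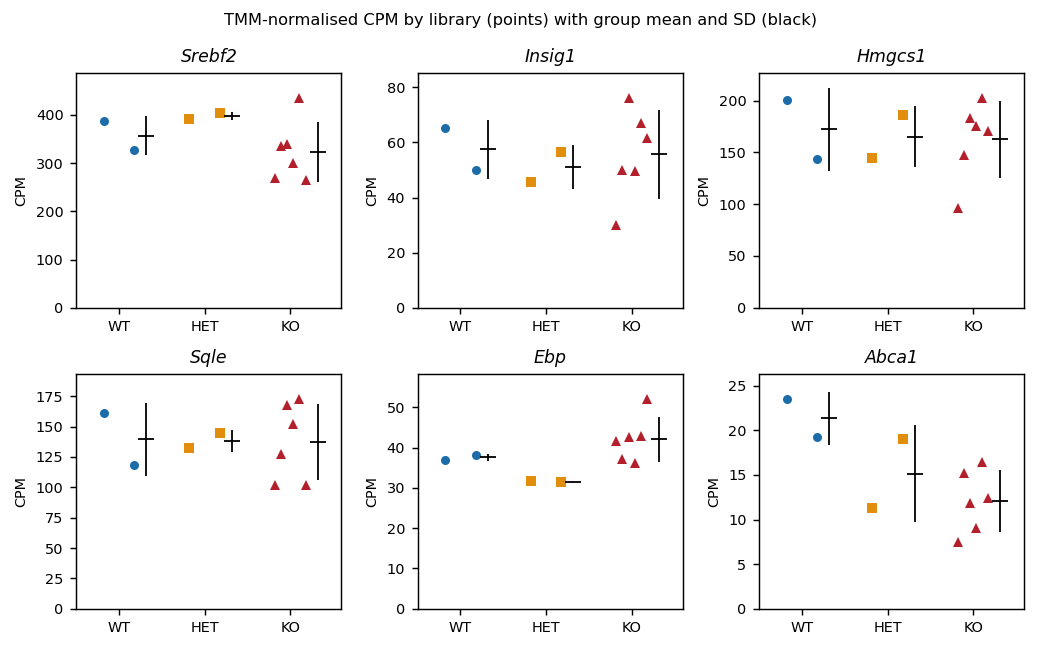
CPM of 6 genes by library, with the mean and SD of each genotype in black and all axes from 0. For Srebf2, Insig1, Hmgcs1 and Sqle the KO libraries spread over the range of the controls, for Ebp both HET libraries (31.4 and 31.7 CPM) lie below all others, and for Abca1 both WT libraries (19.3 and 23.5 CPM) lie above all KO libraries.

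Among the other synthesis enzymes, the differences nearest to the unadjusted threshold in controls over KO were those of Fdft1 at -0.24 (SE 0.118, unadjusted p = 0.0603), Pmvk at -0.31 (SE 0.160, unadjusted p = 0.0771) and Dhcr7 at -0.42 (SE 0.223, unadjusted p = 0.0860), each with an edgeR adjusted p of 0.744. Pmvk ran from 28.1 to 35.9 CPM in the controls and from 32.2 to 50.3 CPM in KO, and Dhcr7 from 15.9 to 26.8 CPM and from 16.99 to 35.5 CPM. Both were highest in KO1. Their mean transcripts, of 1188 and 1919 bases, fall in the class from 1000 to 2000 bases. All genes of that class had a median of -0.12 in the same comparison. The mean transcript of Fdft1, of 2819 bases, falls in the next class, up to 3000 bases, with a median of 0.015. With the length trend of each library taken out, Fdft1 was at an unadjusted p under 0.05 in edgeR in controls over KO. Pmvk and Dhcr7 were not. The part of length in their values was not tested further. For the SREBP system all 5 genes had a higher WT than KO mean, with log2 fold changes of 0.03 to 0.37. None was at an unadjusted p under 0.05 in edgeR. Of all genes tested, 48.2% had a positive log2 fold change in WT over KO. With the length trend of each library taken out, Srebf2 and Insig1 turned to -0.030 and -0.022. In controls over KO the log2 fold changes of the 5 genes ran from -0.05 to 0.28.

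In WT over KO the log2 fold change was smaller than the SD of log2 levels between KO libraries for all of the 19 enzymes but Pmvk, Fdft1, Nsdhl and Dhcr7. As the mean deviation of log2(CPM + 1) from each gene's 10-library mean, the 19 enzymes stood at 0.28 in KO5, 0.22 in KO3 and 0.07 in KO4, and at -0.07 in KO2, -0.08 in KO1 and -0.35 in KO6. WT libraries were at 0.11 and -0.12 and HET libraries at -0.11 and 0.05, inside the KO range. In KO5, 18 of the 19 enzymes were above their own mean and in KO3, 17 were. In WT2, 4 were, and in KO2 and KO6, 5 each. KO6 was the lowest of the 10 libraries for 6 enzymes and the highest for 2, and WT2 the lowest for 4 and the highest for 0.

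KO6 and KO1 were the 2 lowest of the 10 libraries for Sqle, Cyp51, Lss, Srebf1 and Srebf2, and stood apart from each other in other genes. In KO6, Mvk was at 3.198 CPM (9.85 to 18.7 CPM in the other KO libraries), Mvd at 7.05 CPM (17.5 to 31.03 CPM), Lss at 19.7 CPM (25.1 to 63.3 CPM) and Hsd17b7 at 10.2 CPM (16.6 to 31.4 CPM). Insig2, the gene of the other INSIG protein, was at 13.5 CPM in KO6 and at 28.9 to 45.8 CPM in the other KO libraries, and of its transcripts only the longest, of 2697 bases, had a level above 0 in KO6. In the same library Ggps1 was at 67.2 CPM, the highest of the 10, and Scap at 83.6 CPM, also the highest.

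KO1 was the lowest library for Hmgcs1, Sqle, Cyp51, Srebf1, Scap, Insig1, Mylip and Abca1 and the highest for Pmvk, Fdps, Dhcr7, Insig2 and Nr1h2. The mean transcripts of the genes lowest in KO1 have 2697 to 10262 bases, and those of the highest 1188 to 1919. All genes from 1000 to 2000 bases deviated by a median of 0.20 log2 units in KO1. Those up to 3000 bases, the class of Sqle and Insig1, deviated by -0.05. Those up to 5000 deviated by -0.24, and those over 5000 by -0.30. The part of length in these KO1 values was not tested. Cyp51 was at 133 CPM in KO1 and at 148 to 240 CPM in the other KO libraries, and Fdps at 176 CPM against 109 to 171 CPM. The median SD of log2 levels over KO libraries was 0.34 for the 31 genes and 0.33 for all genes tested, and 0.31 and 0.29 without KO6. The steadiest members in KO were Mylip, Fdft1 and Nr1h2, with SDs of 0.13 to 0.14, and the most variable Nr1h3 and Mvk, with 0.91 and 0.81. Without KO6 the SD of Mvk was 0.33, and the most variable were Nr1h3, Stard4 and Abcg1, with 0.68, 0.67 and 0.65.

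**Figure D4:**
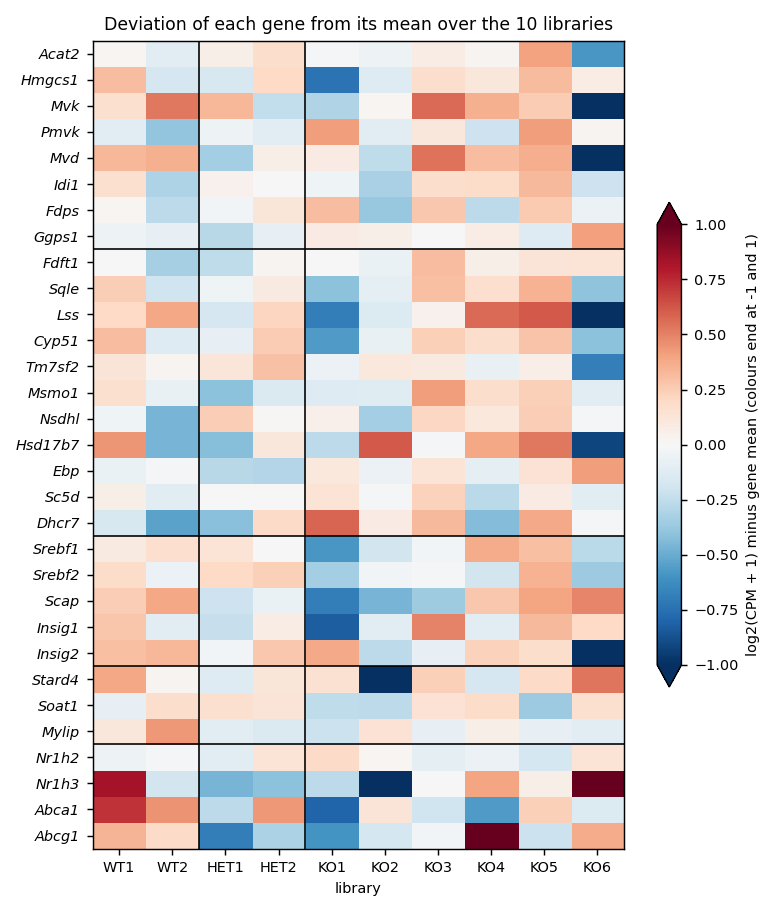
Deviation of log2(CPM + 1) of each gene (rows, by role from top to bottom) from its own mean over the 10 libraries (columns, by genotype), with red above and blue below the mean and colours ending at -1 and 1. KO5 and KO3 are red for most synthesis enzymes, KO6 is blue for Mvk, Mvd, Lss, Hsd17b7 and Insig2, and KO1 is blue for Hmgcs1, Cyp51, Lss, Scap and Insig1.

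Abca1, the pump that loads cholesterol onto apolipoproteins, was at 23.5 and 19.3 CPM in WT and at 11.3 and 18.99 CPM in HET. In KO it ran from 7.49 to 16.5 CPM with a median of 12.2 CPM. Both WT libraries lay above all KO libraries, HET2 did too, and HET1 lay inside the KO range. The mean was 21.4 ± 2.97 CPM (SD, n = 2) in WT, 15.2 ± 5.42 CPM (SD, n = 2) in HET and 12.1 ± 3.45 CPM (SD, n = 6) in KO. WT exceeded KO by a log2 fold change of 0.81 (SE 0.312, 95% interval 0.12 to 1.501, unadjusted p = 0.0257, edgeR adjusted p = 0.999), and controls exceeded KO by 0.59 (SE 0.265, 95% interval 0.01 to 1.16, unadjusted p = 0.0458, adjusted p = 0.744), so neither passed the threshold. In HET over KO it was 0.33 (SE 0.325, adjusted p = 0.752) and in WT over HET 0.48 (SE 0.405, adjusted p = 0.918).

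Single libraries moved these values across an unadjusted p of 0.05 in edgeR. Without WT1 the WT over KO value was 0.67 (unadjusted p = 0.164), without WT2 it was 0.94 (unadjusted p = 0.0541), and without any 1 KO library it stayed between 0.71 and 0.92 (unadjusted p from 0.0158 to 0.0454). The controls over KO value had an unadjusted p of 0.0697 to 0.153 without WT1, WT2, HET2, KO1, KO3 or KO4, and of 0.0138 to 0.0495 without any other single library. In HET over KO it was -0.09 without HET2 and 0.65 without HET1. The Abca1 transcript has 10262 bases, and genes with transcripts over 8000 bases had a median of 0.04 in WT over KO and in controls over KO. With the length trend of each library taken out of the fit, an alternative chosen after seeing the data, Abca1 was at 0.69 (SE 0.325, unadjusted p = 0.0603) in WT over KO and at 0.46 (SE 0.268, unadjusted p = 0.109) in controls over KO.

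Abcg1, which exports sterol to lipoproteins, was at 6.17 and 5.47 CPM in WT, at 2.51 and 3.54 CPM in HET and at 2.75 to 11.3 CPM in KO, with a KO median of 4.29 CPM. The highest library was KO4, and the HET libraries lay at the low end. Nr1h3, the liver X receptor known from macrophages and liver, was at 5.15 and 2.04 CPM in WT, at 1.496 and 1.59 CPM in HET and at 0.323 to 8.22 CPM in KO, with KO6 highest. The log2 fold changes in controls over KO were -0.31 (SE 0.435) and -0.31 (SE 0.692), with edgeR adjusted p-values of 0.884 and 0.934. Nr1h2 differed little, at 76.1 to 90.3 CPM in controls and 72.5 to 93.4 CPM in KO (log2 fold change -0.02, SE 0.107, adjusted p = 0.978).

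Macrophages are known to express these pumps. The sum of the 10 myeloid markers was highest in KO4 (815 CPM), then WT1 (631 CPM) and WT2 (495 CPM), and 9 of the 10 had a higher mean in WT than in KO, 4 of the 10 a higher mean in controls than in KO. Abcg1 was highest in KO4, WT1 and KO6 and at most 4.02 CPM in the 4 libraries with 84.7 to 112 CPM of myeloid markers. In KO3, KO5 and KO6, with 303, 297 and 296 CPM of these markers, Abcg1 was at 4.55, 3.87 and 6.31 CPM. Abca1 was at 9.03 CPM in KO4, at 23.5 and 19.3 CPM in the WT libraries, and at 18.99 CPM in HET2, which had 101 CPM of myeloid markers. The part of myeloid RNA in the WT over KO value of Abca1 was not tested.

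**Figure D5:**
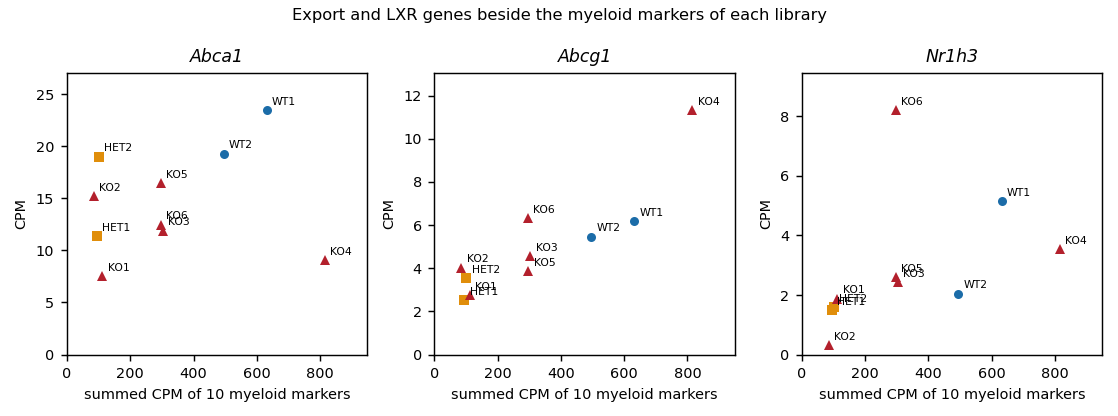
CPM of Abca1, Abcg1 and Nr1h3 against the summed CPM of 10 myeloid markers, 1 point per library, with axes from 0. Abcg1 is highest in KO4, the library with the highest marker sum (815 CPM), Abca1 is at 9.03 CPM there and Nr1h3 is highest in KO6, at 8.22 CPM.

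Mylip was at 38.4 and 48.2 CPM in WT, at 32.8 and 31.96 CPM in HET and at 30.4 to 39.2 CPM in KO. WT2 was the highest library, and WT1 lay inside the KO range. The log2 fold change was 0.33 in WT over KO (SE 0.173, unadjusted p = 0.0865, edgeR adjusted p = 0.999) and 0.41 in WT over HET (SE 0.205, unadjusted p = 0.0699, adjusted p = 0.794). T cell marker RNA was higher in both WT libraries than in HET, at 245 and 249.1 CPM against 188 and 190.4 CPM. It was highest in KO1, at 253 CPM, the library with the lowest Mylip, at 30.4 CPM. The part of T cell RNA in these values was not tested. Stard4 was at 11.1 CPM in KO2 and at 26.4 to 43.6 CPM in the other KO libraries, and Soat1 at 40.3 to 48.6 CPM in controls and 33.1 to 48.7 CPM in KO.

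Genes that share the pathway's precursors, regulators or products were described from 6 further lists. No gene of these lists passed the adjusted threshold in any of the 4 edgeR comparisons. In controls over KO at an unadjusted p under 0.05, 1 of 6 genes of SREBP processing and sterol-regulated degradation was higher, and 1 of 10 of fatty acid synthesis, beside 4.05% of all genes. None passed among 3 genes of oxysterol metabolism, 12 of prenylation and isoprenoid use, 9 of lysosomal and intracellular sterol transport, and 4 of lipoprotein and scavenger receptors, and no gene of the 6 lists was lower, beside 2.26% of all genes. In HET against KO, the count was 1 of 6 for SREBP processing and 1 of 11 for fatty acid synthesis, both higher in HET, and 1 of 12 in each direction for prenylation, beside 5.46% of all genes higher and 4.76% lower. It was 1 of 3, 1 of 9 and 1 of 4, all lower in HET, for oxysterol metabolism, sterol transport and scavenger receptors. WT against KO had none in the 6 lists, beside 1.19% of all genes higher and 1.0% lower, and WT against HET had Gpr183 alone, higher in WT, beside 3.98% higher and 2.44% lower.

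Mbtps1, the protease that makes the first cut in SREBPs, was at 135 and 137 CPM in WT, at 132 and 163 CPM in HET and at 98.0 to 146 CPM in KO, where KO4 alone was above the lowest control. The log2 fold change in controls over KO was 0.30 (SE 0.121, unadjusted p = 0.0280, edgeR adjusted p = 0.744). Acly, which makes the cytosolic acetyl-CoA used by sterol and fatty acid synthesis, was at 379 and 363 CPM in WT, at 486 and 455 CPM in HET and at 214 to 388 CPM in KO (0.37, SE 0.163, unadjusted p = 0.0435, adjusted p = 0.744). Both HET libraries were above all KO libraries for Acly, and the WT libraries lay inside the KO range. Icmt, which methylates prenylated proteins, was at 36.8 and 30.3 CPM in WT, at 40.2 and 51.2 CPM in HET and at 4.18 to 31.8 CPM in KO, lowest in KO6 (0.88, SE 0.414, unadjusted p = 0.0535, adjusted p = 0.744).

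Gpr183, the receptor for an oxysterol that guides B cells, was at 41.1 and 33.0 CPM in WT, at 19.4 and 13.8 CPM in HET and at 28.4 to 63.4 CPM in KO. The HET libraries lay below all others, at a log2 fold change of -1.23 in HET over KO (SE 0.310, unadjusted p = 0.00192, edgeR adjusted p = 0.299), and WT lay inside the KO range (-0.09, SE 0.288). DESeq2 gave the HET over KO value an adjusted p of 0.00899. Cd36, a scavenger receptor, and Npc2, a lysosomal sterol carrier, were low in HET too, at 62.5 and 50.7 CPM and at 22.3 and 26.4 CPM, and highest in KO6, at 383 and 86.4 CPM. The HET libraries also had the lowest sums of naive B cell markers among the controls (780 and 781 CPM, against 1118 and 1157 CPM in WT and 684 to 1546 CPM in KO) and low sums of myeloid markers. KO5 had a lower naive sum than HET, at 684 CPM, with Gpr183 at 38.7 CPM. KO2 had a lower myeloid sum than HET, at 84.7 CPM, with Gpr183 at 32.4 CPM. The part of naive B cell and myeloid RNA in these values was not tested.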

How the data were processed

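NP-binding germinal center B cells were sorted, and RNA was amplified and sequenced as paired reads, 1 library per mouse. The deposited files hold, per the submitters' processing notes, Salmon 0.9.1 output for each transcript: the expected counts (estimated by Salmon, with 46.8% of values not whole) and TPM, which the authors quantified against Gencode vM17 transcripts. The notes also name DESeq2 2.11.40.6. Expected counts of 64019 transcripts were summed to 22380 genes and rounded. CPM values use the summed counts with TMM factors, and TPM values were summed per gene. The strand setting of the counting is not given in the sources used here.

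Genotypes were taken from the labels. edgeR 4.0.16 (R 4.3.3) was run with TMM, filterByExpr, quasi-likelihood tests and Benjamini-Hochberg adjustment over all genes tested, at a threshold of 0.1. WT against KO used only the libraries of those genotypes, WT plus HET against KO pooled the controls, and the other 2 comparisons used all 10 libraries with a term per genotype. Folds are first over second group. SEs are the log2 fold change over the root of F, and 95% intervals use edgeR's degrees of freedom. The p-values measure the spread between these libraries. Alternatives were DESeq2 1.42.0 and its size factors, other filters, counts scaled by transcript length, limma 3.58.1 on log2(TPM + 1) and log2(TPM + 0.1), immunoglobulin genes left out, a replicate block, each library left out, other library sets and a threshold of 0.05. A length trend removed from each library was added after seeing the data. The replicate block gives each of KO3 to KO6 a term of its own, so its differences rest on the libraries numbered 1 and 2.

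The members and lists were chosen with earlier results of these data known. All 31 genes are given with their TPM level. Values by library are given for members with an unadjusted p under 0.05 in any comparison and for Srebf2, Insig1, Hmgcs1, Sqle and Abca1, which stand for regulator, feedback, early, late and export steps, and up to 3 genes of each further list with the smallest p in controls against KO were eligible. Other members named with values were chosen after their values were seen. On simulated counts for the real genes, edgeR recovered 35 of 100 genes changed 2-fold and 66 of 100 changed 4-fold in WT against KO (14203 genes), and 51 and 77 of 100 in WT plus HET against KO (13347 genes). No libraries were alike within sampling noise. Gene positions are from Gencode vM21 and upstream sequences from RefSeq, both on GRCm38.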

Additional observations from a re-analysis of the deposited data

Results flagged for a closer look

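Single libraries lay far from the rest of their group for 3 of the 31 genes, by Dixon's criterion at its 95% critical value. Chance gives about 1 in 20 groups, or 3.1 of the 62 groups checked, and 3 were found. Tm7sf2, a sterol reductase of the synthesis pathway, was at 41.7 CPM in KO6, and the next KO library was at 63.9 CPM. Stard4, a carrier of cholesterol between membranes, was at 11.1 CPM in KO2, and the next was at 26.4 CPM. Ggps1, which makes geranylgeranyl diphosphate, was at 41.5 CPM in HET1, and the next of the 4 control libraries was at 47.5 CPM.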

How the results depend on the processing

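No member passed an adjusted p of 0.1 in any comparison under any alternative. In WT against KO, the 1 gene of all those tested that passed became 6 with DESeq2, 0 and 3 with limma on log2(TPM + 1) and log2(TPM + 0.1), 6 with the replicate number as a block, 2 in the fit of all 10 libraries and 0 at a threshold of 0.05, and 0 to 2 when single libraries were left out. In WT plus HET against KO the 1 gene became 18 with DESeq2 and 0 with counts scaled by length, with limma at either pseudocount and with the replicate block, and 1 to 2 without single libraries. In HET against KO the 1 gene became 458 with DESeq2, 2 without a filter, 0 with at least 10 counts in every library, 0 with scaled counts, 6 with limma on log2(TPM + 0.1), 4 with the block, 3 with the length trend removed and 0 with only the libraries of the 2 groups, and 0 to 5 without single libraries. In WT against HET it became 125 with DESeq2, 0 with at least 10 counts, 5 with limma on log2(TPM + 0.1), 66 with the block and 523 with only the 2 groups' libraries, and 0 to 16 without single libraries. The cause was not tested.

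Members at an unadjusted p under 0.05 in WT against KO went from 1 to 0 with scaled counts, limma on log2(TPM + 0.1) and the length trend removed, to 6 with the block (Abca1, Dhcr7, Lss, Nr1h3, Scap and Stard4), under which all genes at that p went from 311 to 1090 of 14203, and to 0 to 2 without single libraries. In WT plus HET against KO they went from 1 to 2 with DESeq2, to 0 with scaled counts, to 3 with the block (Lss, Scap and Srebf1, with all genes going from 841 to 1104 of 13347) and to 0 to 3 without single libraries. The count stayed at 1 but Abca1 gave way to Fdft1 with the length trend removed and without KO1, to Soat1 with limma at either pseudocount and to Ebp without WT2. In HET against KO they went from 1 to 2 with at least 10 counts and with scaled counts, to 0 with the length trend removed and with only the 2 groups' libraries, and to 0 to 2 without single libraries. The count stayed at 1 but Ebp gave way to Soat1 with limma at either pseudocount, to Scap with the block (all genes going from 1467 to 1396 of 14354) and to Srebf2 without KO5. In WT against HET they went from 0 to 1 with DESeq2, the block, the length trend removed and only the 2 groups' libraries (Mylip with DESeq2 and the length trend removed, Scap with the other 2, with all genes going from 922 to 1215 of 14354 under the block), and to 0 to 1 without single libraries.

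Small log2 fold changes turned sign. With the length trend removed, WT over KO was -0.026 for Hmgcs1, -0.047 for Sqle, -0.030 for Srebf2 and -0.022 for Insig1, and controls over KO was -0.050 for Hmgcs1 and -0.040 for Sqle. With limma, Ebp in WT over KO was 0.0069 and 0.0072 and Insig1 in controls over KO 0.12 and 0.13, at pseudocounts of 1 and 0.1. With the replicate block, controls over KO was 0.46 for Insig1, 0.20 for Cd36 and 0.12 for Npc2. Without single libraries, WT over KO ran from -0.18 to 0.29 for Hmgcs1, from -0.22 to 0.21 for Sqle and from -0.16 to 0.21 for Insig1. Controls over KO ran from -0.064 to 0.12, from -0.064 to 0.086 and from -0.17 to 0.059 for the same genes, and HET over KO from -0.093 to 0.65 for Abca1. Of the single-gene values, 404 kept their direction and their side of the threshold, 33 changed sign and 1 passed the threshold (Gpr183 in HET over KO with DESeq2, -1.23).

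Only the numbers 1 and 2 recur across genotypes, and nothing in the labels ties them to a litter or day. Deviations of same-numbered libraries correlated at -0.0051 (WT1 with KO1), 0.05 (HET1 with KO1), 0.13 (WT2 with KO2) and 0.02 (HET2 with KO2), so the numbers were not taken to pair the libraries. With 2 WT libraries, 2-fold differences were often missed in simulated counts. Counting error bears most on Nr1h3, which had 9 to 275 counts in a library, then on Abcg1 with 76 to 359 and Mvk with 107 to 576.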
